A study of Mus musculus with 24 samples.

Results

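Broad single-gene coding promoters are the long stretches of open chromatin that cover the start of 1 protein-coding gene. They were taken from the consensus ATAC-seq peaks of mouse germinal center (GC) B cells as autosomal peaks of 2500 bp or more that contain a transcription start site (TSS) of exactly 1 protein-coding gene. Of 65483 peaks, 1321 met the rule (2.02% of the peaks and 5.89% of their summed length), at 1288 genes. The rule used peak length, which comes from peaks called on accessibility, and no difference between genotypes. Another 9661 peaks under 2500 bp contained TSSs of exactly 1 protein-coding gene and are called short promoters here.

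ATAC-seq reads out chromatin that a transposase can cut. The 17 libraries came from splenic GC B cells sorted 10 days after immunization with sheep red blood cells (SRBC), 1 library per mouse. All mice carried Cg1Cre+/-, a Cre recombinase expressed from the Ighg1 locus, which recombines floxed alleles as B cells enter the GC reaction. Without a floxed allele these were the WT mice (n = 4). C mice carried Crebbp fl/+ (n = 4), K mice Kmt2d fl/+ (n = 4) and CK mice both floxed alleles (n = 5), so that each gene kept 1 allele without the floxed site. The cells were enriched with peanut agglutinin beads before the sort, and deletion in each sorted cell was not measured here. The libraries held 17483706 to 21857738 fragments in peaks. Signal from unique chromosome Y peaks was present in 9 libraries and absent in 8, with both kinds in every genotype.

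CREBBP is an acetyltransferase of histones and of transcription factors, and KMT2D is a histone H3 lysine 4 methyltransferase that acts mostly at enhancers. A promoter becomes accessible where nucleosomes are displaced around the TSS. Long promoters often belong to cell identity genes or to CpG island genes. In cells that do not use them, many CpG island promoters of developmental regulators are held by Polycomb complexes.

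Promoter markers of the labelled cell type were open in all genotypes. All 12 listed B-cell and GC marker genes had a promoter peak, with a summed level of 844 to 940 library-scaled counts (CPM) in WT and 775 to 858 CPM in CK. Of 15 T-cell markers, 6 had a promoter peak, and Cd3e, Cd3d, Cd3g, Cd4 and Cd8a had none. The summed T-cell level was 131 to 132 CPM in WT and 128 to 134 CPM in CK. Of 13 myeloid markers 4 had a promoter peak, with 18.8 to 22.9 CPM in WT and 22.9 to 25.3 CPM in CK, and of 9 erythroid and megakaryocyte markers only Epor had one. Fewer cells with an open promoter and less opening per cell cannot be told apart in such libraries.

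The broad promoters had a median length of 2978 bp, and the longest, at Irf2bp2, a transcriptional corepressor gene, was 6872 bp. Of the 1321, 686 were under 3000 bp. They reached further into the gene than out of it: the median extent was 1016 bp upstream and 2025 bp downstream of the first TSS in the peak, and 70.9% were longer on the downstream side against 72.9% of short promoters. In 950 the first coding TSS in the peak was the 5′ end of the gene record, while in the other 371 it lay further into the gene. A TSS of a noncoding gene lay in 275. The median GC content was 55.1%, compared with 57.4% for short promoters and 48.2% for all peaks, and the median observed over expected CpG ratio was 0.61, compared with 0.67 and 0.24.

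At the length limit, the peak of Mxra7 was exactly 2500 bp and those of BC004004, Dnajb4, Rest and Tmem62 were 2501 bp. Their log2 fold changes in CK against WT ran from -0.03 at BC004004 to 0.52 at Mxra7. Just outside were Ahcyl2 with 2499 bp, Etv6 and Zfp62 with 2497 bp, and Atp6v0a1 and Bag2 with 2496 bp, where the same value ran from -0.12 at Ahcyl2 to 0.35 at Bag2. The levels on both sides overlapped, with WT means of 5.89 to 56.6 CPM inside and 31.1 to 95.5 CPM outside.

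The 150 bases just upstream of the first TSS are printed for the promoters that lead the changes in CK described next, because gained and lost promoters differed in CpG content. They were read from GRCm38, the build of the files (mm10), on the strand of the gene, 5′ to 3′, with each CpG in capitals. The first 4 opened in CK.

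Nr3c2 (chr8:76899292-76899441, + strand): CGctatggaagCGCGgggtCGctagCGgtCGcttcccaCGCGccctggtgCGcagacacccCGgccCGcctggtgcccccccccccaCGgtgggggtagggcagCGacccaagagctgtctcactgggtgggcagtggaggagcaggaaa
Jag1 (chr2:137116645-137116794, - strand): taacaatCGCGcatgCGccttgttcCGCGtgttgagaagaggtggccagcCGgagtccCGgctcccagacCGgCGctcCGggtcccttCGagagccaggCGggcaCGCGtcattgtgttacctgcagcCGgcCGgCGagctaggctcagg
Tmtc1 (chr6:148444390-148444539, - strand): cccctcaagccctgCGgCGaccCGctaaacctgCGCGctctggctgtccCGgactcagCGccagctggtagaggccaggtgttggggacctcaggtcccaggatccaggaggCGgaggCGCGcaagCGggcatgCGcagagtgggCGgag
Zfp704 (chr3:9610086-9610235, - strand): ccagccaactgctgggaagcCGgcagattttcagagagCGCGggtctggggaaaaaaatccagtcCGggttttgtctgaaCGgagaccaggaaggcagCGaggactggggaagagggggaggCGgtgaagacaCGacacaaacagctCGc

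The other 4 closed in CK.

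Apoe (chr7:19699189-19699338, - strand): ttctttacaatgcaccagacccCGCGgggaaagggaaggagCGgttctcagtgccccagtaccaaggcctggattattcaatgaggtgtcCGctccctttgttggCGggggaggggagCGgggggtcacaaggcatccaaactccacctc
Grm6 (chr11:50850535-50850684, + strand): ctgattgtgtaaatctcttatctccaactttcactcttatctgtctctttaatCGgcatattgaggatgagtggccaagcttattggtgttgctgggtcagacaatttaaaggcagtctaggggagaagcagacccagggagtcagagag
Il2rb (chr15:78495272-78495421, - strand): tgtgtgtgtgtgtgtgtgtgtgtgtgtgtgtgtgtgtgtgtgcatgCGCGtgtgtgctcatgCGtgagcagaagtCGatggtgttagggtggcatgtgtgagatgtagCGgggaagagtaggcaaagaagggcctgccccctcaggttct
Akna (chr4:63403355-63403504, - strand): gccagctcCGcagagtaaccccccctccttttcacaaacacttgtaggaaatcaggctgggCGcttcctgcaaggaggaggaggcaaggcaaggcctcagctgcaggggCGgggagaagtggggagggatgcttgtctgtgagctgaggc

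The windows of the gained promoters held 13 CpGs at Nr3c2, 17 at Jag1, 13 at Tmtc1 and 9 at Zfp704. Those of the lost promoters held 6 at Apoe, 1 at Grm6, 5 at Il2rb, in a window that opens with a TG repeat, and 3 at Akna. Over the same 150 bases, the median was 12 CpGs in the 127 broad promoters gained in CK, 3 in the 34 lost, 11 in all broad promoters and 10 in all 10982 single-gene promoters.

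The comparison of CK with WT asked what the loss of 1 allele of both genes did to these promoters. Calls of gain and loss were made with edgeR (quasi-likelihood) over all 65483 peaks, at 0.01 after adjustment. In CK, 127 broad promoters were gained (9.61%), compared with 3.54% of all peaks, and 34 were lost (2.57%), compared with 3.3% of all peaks. Short promoters gave 10.7% gained and 0.83% lost. The median log2 fold change was 0.04 for broad promoters, 0.07 for short promoters and 0.0029 for all peaks. The gained changes were mostly modest, from 0.18 to 1.07 on the log2 scale, and 33 exceeded 1.5-fold. Only 1 of the 34 lost promoters, that of Eya2, did. The split between the directions depended on the scaling: after counts were centred in 20 bins of GC content, 90 were gained and 87 lost. Of all 65483 peaks, 1678 were then gained and 2201 lost, compared with 2320 and 2158 without the bins. Such centring takes out, in each library, the median shift of peaks of like GC content, whatever its source. Promoters had a higher GC content than all peaks, so a shift shared by promoters would be reduced as well. Without WT 4 there were 79 gained and 13 lost, without WT 3 there were 83 and 22, and without CK 4 the lost promoters numbered 22. Among all peaks there were 1150 gained and 964 lost without WT 4, 1384 and 1331 without WT 3, and 1597 lost without CK 4.

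Nr3c2, which encodes the mineralocorticoid receptor, had the strongest support for a gain (chr8:76898883-76902574, 3692 bp, from 559 bp before the TSS into the gene). Its promoter had 17.1, 20.3, 18.1 and 15.1 CPM in the 4 WT mice and 30.2, 31.6, 31.6, 29.4 and 29.8 CPM in the 5 CK mice. The C mice had 22.6, 20.9, 21.5 and 20.3 CPM and the K mice 22.6, 23.5, 21.2 and 22.9 CPM. All CK mice stood above all others, and all C and K mice lay between the CK and the WT mice. The log2 fold change in CK was 0.79 (SE 0.07, edgeR adjusted p = 3.95e-07), in K it was 0.35 (SE 0.07, edgeR adjusted p = 0.00658) and in C it was 0.27 (SE 0.07, edgeR adjusted p = 0.128).

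**Figure D1:**
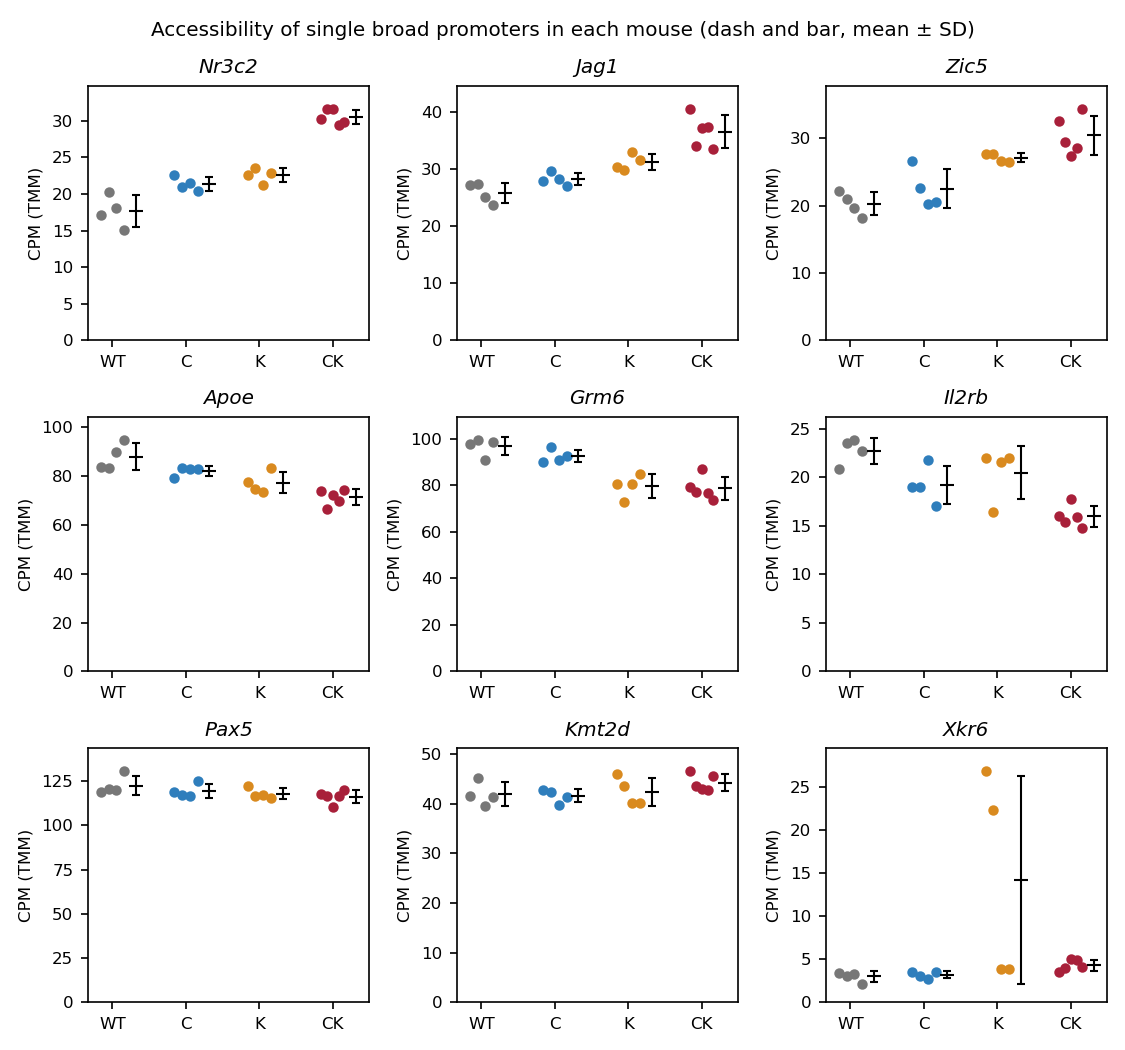
Normalized accessibility (CPM, vertical axis from 0) of 9 broad promoters in each WT, C, K and CK mouse (points), with the mean and SD of each genotype beside them. The top row shows gained, the middle row lost promoters in CK, and the bottom row Pax5 and Kmt2d, which were not called, and Xkr6, where 2 of the 4 K mice stood far above all other mice.

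Several signalling genes were among the strongest gains. Jag1, a ligand of the Notch receptors, had 27.2, 27.5, 25.2 and 23.7 CPM in WT and 40.6, 34.1, 37.3, 37.5 and 33.6 CPM in CK, a log2 fold change of 0.50 (SE 0.06, edgeR adjusted p = 1.36e-05). Spry2, a feedback inhibitor of receptor tyrosine kinase signalling, had 14.5, 17.3, 16.2 and 14.1 CPM in WT and 30.6, 28.7, 21.7, 23.1 and 28.0 CPM in CK, a log2 fold change of 0.76 (SE 0.10, edgeR adjusted p = 3.59e-05). WT and CK did not overlap at either gene.

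Among genes for transcription factors, Zic5, a zinc finger factor of the neural tube, had 22.2, 20.9, 19.7 and 18.2 CPM in WT and 32.6, 29.4, 27.4, 28.5 and 34.3 CPM in CK, a log2 fold change of 0.59 (SE 0.08, edgeR adjusted p = 3.86e-05). The zinc finger gene Zfp704 had 11.4, 11, 10.1 and 9.30 CPM in WT against 15.9, 17.5, 17.6, 16.9 and 16.1 CPM in CK, a log2 fold change of 0.69 (SE 0.09, edgeR adjusted p = 1.81e-05). Each CK mouse was above each WT mouse at both promoters. Both were also called in K, Zic5 at 0.42 (edgeR adjusted p = 0.00527) and Zfp704 at 0.48 (edgeR adjusted p = 0.0036). Omitting WT 3, WT 4 or K 1 ended either K call, and for Zic5 also WT 2 or K 2. Neither was called in CK against K.

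The remaining leading gains were Tmtc1, which encodes a transmembrane O-mannosyltransferase of the endoplasmic reticulum, Svil, for the actin-binding supervillin, and 1700019D03Rik. Tmtc1 went up from 8.48 ± 0.87 CPM (SD, n = 4) in WT to 15 ± 1.7 CPM (SD, n = 5) in CK, Svil from 7.08 ± 0.43 to 11.4 ± 0.58 CPM, and 1700019D03Rik from 15.9 ± 1.3 to 24.0 ± 2.8 CPM. Their log2 fold changes were 0.82, 0.69 and 0.59. Svil was also called in K, at 0.46 (edgeR adjusted p = 0.00639), unless WT 2, WT 3, WT 4, K 1, K 2 or K 4 was left out. Of the 127 promoters gained in CK, 126 were above 0 in K and 116 in C. Their median log2 fold changes were 0.28 in K, 0.13 in C and 0.42 in CK. All were called in CK against the same WT mice, so this agreement is not a test.

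The promoters lost in CK had a median level of 19.2 CPM per kb, compared with 5.88 for the gained ones and 19.3 for all broad promoters. They were poorer in CpG. Of the 34 lost, 13 had only an inner start site, against 30 of the 127 gained and 371 of all 1321. Apoe, which encodes apolipoprotein E (chr7:19698186-19701592), had 84.0, 83.2, 90.0 and 94.8 CPM in WT and 74.0, 66.4, 72.5, 69.8 and 74.3 CPM in CK, a log2 fold change of -0.30 (SE 0.05, edgeR adjusted p = 0.000151). The level in C was 82.1 ± 2.0 CPM (SD, n = 4) and in K 77.3 ± 4.4 CPM (SD, n = 4). Every CK mouse was below every WT mouse.

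Il2rb, the beta chain of the IL-2 and IL-15 receptors, had 20.9, 23.6, 23.8 and 22.6 CPM in WT and 16, 15.4, 17.7, 15.9 and 14.8 CPM in CK, a log2 fold change of -0.51 (SE 0.09, edgeR adjusted p = 0.000296). Akna, which encodes an AT-hook protein reported to act on CD40 and its ligand, had 87.2, 85.4, 87.1 and 100 CPM in WT and 75.3, 73.3, 68.0, 69.9 and 78.0 CPM in CK, a log2 fold change of -0.30 (SE 0.05, edgeR adjusted p = 0.000375). The ranges of WT and CK did not meet at these genes. Eya2, a transcriptional coactivator and phosphatase, showed the largest fall, from 9.70 ± 1.4 CPM (SD, n = 4) in WT to 5.24 ± 1.4 CPM (SD, n = 5) in CK, which is -0.88 on the log2 scale (SE 0.16, edgeR adjusted p = 0.000564). Its peak covers a start site inside the gene record and reached 2846 bp upstream and 158 bp downstream of it.

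Havcr1, which encodes the receptor TIM-1, fell at an inner start site from 35.0 ± 2.5 to 26.9 ± 2.0 CPM, Ppdpf from 127 ± 7.2 to 109 ± 2.3 CPM and 4930404H24Rik from 57.0 ± 3.1 to 44.8 ± 2.8 CPM (WT n = 4, CK n = 5). The 8 leading gains and 8 leading losses in CK kept their calls with DESeq2, its size factors, total counts, GC content bins, the edgeR filter filterByExpr, chromosome Y signal as a covariate and a replicate block, and without any single mouse. Jag1 and all these losses but Eya2 changed by under 1.5-fold.

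Counted by mouse, every CK mouse was above every WT mouse at 185 broad promoters (14%), compared with 6.59% of all peaks, and below every WT mouse at 69 (5.22%), compared with 6.39% of all peaks. All 127 gained promoters had a higher mean in CK than in WT, both among the mice with Y signal and among those without. All 34 lost promoters had a lower mean in both. These promoters were called on the same mice, and at 115 of the 127 and 31 of the 34 no CK mouse met the WT range. The agreement was therefore largely set by the calls and does not test the Y signal.

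The comparison of K with WT addressed the loss of 1 Kmt2d allele. In K, 25 broad promoters were gained (1.89%, compared with 0.647% of all peaks) and 4 lost (0.30%, compared with 0.828%). The shares among short promoters were 2.12% and 0.155%. The median log2 fold change was 0.04. Each K mouse was above each WT mouse at 132 promoters (9.99%, compared with 5.42% of all peaks) and below at 45 (3.41%, compared with 5.87%).

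These K calls rested on single libraries. Without WT 4, no broad promoter was gained or lost, while of all peaks 104 were gained and 150 lost. With all mice, 382 of the 1321 broad promoters had an unadjusted p under 0.05 in edgeR, compared with 13472 of the 65483 peaks. DESeq2 gave 49 gained and 9 lost, beside 786 and 953 of the 52783 peaks for which it gave an adjusted p. The counts of gained and lost promoters were 1 and 2 without WT 3, 2 and 0 without K 1, and 10 and 2 without K 2. For all peaks they were 119 and 230, 85 and 131, and 288 and 342. Gained promoters numbered 14 without WT 2 and 15 without K 4, and lost promoters 1 without WT 1 and 2 without K 3. The same omissions gave 250 and 283 gained, and 456 and 377 lost, among all peaks. Centring within GC content bins gave 9 gained and 17 lost, beside 236 and 471 of all peaks.

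Cadm1, a cell adhesion molecule, had 27.4, 22.8, 29.1 and 28.5 CPM in the K mice against 15.8 to 21 CPM in WT, a log2 fold change of 0.49 (SE 0.09, edgeR adjusted p = 0.0022) that was no longer called without WT 4 or K 1 (0.41 at the lowest). Utrn, which encodes the dystrophin relative utrophin, had 68.7, 63.1, 66.6 and 65.8 CPM in K against 57.6, 56.7, 55.9 and 54.1 CPM in WT, a log2 fold change of 0.24 (SE 0.04, edgeR adjusted p = 0.0031). The K mice were above all WT mice at both genes. Scarf2, a scavenger receptor family gene, had only 2.90 ± 0.49 CPM (SD, n = 4) in WT and 5.07 ± 0.74 CPM (SD, n = 4) in K, and Tmtc1 rose to 12.7 ± 1.6 CPM (SD, n = 4).

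The 4 promoters lost in K were those of Grm6, Lst1, Eya2 and Kcnj1. Grm6, a metabotropic glutamate receptor gene, had 98, 99.4, 91.0 and 98.8 CPM in WT, 80.5, 72.7, 80.7 and 84.9 CPM in K, and 79.4, 77.3, 86.9, 76.5 and 73.8 CPM in CK. The log2 fold change was -0.28 in K (SE 0.05, edgeR adjusted p = 0.00276) and -0.30 in CK (SE 0.05, edgeR adjusted p = 0.000238), while the C mice, with 92.6 ± 2.7 CPM (SD, n = 4), overlapped the WT mice. Lst1, a leukocyte transcript of the MHC region, had 41.0 ± 0.45 CPM in K and 41.4 ± 1.1 CPM in CK against 49.5 ± 3.7 CPM in WT. Kcnj1, a potassium channel gene, had at an inner start site 29.3 ± 2.2 CPM in K and 29.7 ± 1.5 CPM in CK against 37.2 ± 2.6 CPM in WT.

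Xkr6, a member of the XK family and 1 of the 5 promoters with the lowest WT level per kb, was also called in K, but not in all mice. Its promoter had 26.8, 22.3, 3.92 and 3.88 CPM in the K mice, 3.46, 3.08, 3.33 and 2.16 CPM in WT and 3.54, 3.93, 5.02, 4.88 and 4.15 CPM in CK. K 1 and K 2 stood apart from all other libraries. The log2 fold change in K of 2.22 (SE 0.42, edgeR adjusted p = 0.00311) became 1.70 without K 1 (edgeR adjusted p = 0.0223) and 1.91 without K 2 (edgeR adjusted p = 0.0115), and the call was also lost without WT 3 (2.28) or WT 4 (2.10).

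The comparison of C with WT addressed the loss of 1 Crebbp allele. In C, 1 broad promoter was gained (0.08%, compared with 0.0596% of all peaks) and none was lost, compared with 0.101% of all peaks. With edgeR 139 of the 1321 had an unadjusted p under 0.05, compared with 5828 of the 65483 peaks. Of the 139, 66 were higher and 73 lower in C. DESeq2 called 2 gained and 1 lost, beside 76 and 104 of all peaks. The median log2 fold change was -0.03. Each C mouse was above each WT mouse at 31 promoters (2.35%, compared with 2.89% of all peaks) and below at 70 (5.3%, compared with 2.77%).

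The gained promoter was that of Tmtc1 (chr6:148442887-148445765). It had 9.68, 7.83, 8.53 and 7.86 CPM in WT, 12.8, 11.9, 14.2 and 12.7 CPM in C, 12.2, 15.1, 11.2 and 12.4 CPM in K, and 15.9, 14.1, 15.4, 12.7 and 17 CPM in CK. All mutant mice stood above all WT mice, and the ranges of C, K and CK overlapped. The log2 fold change was 0.60 in C (SE 0.11, edgeR adjusted p = 0.00629), 0.58 in K (SE 0.11, edgeR adjusted p = 0.00295) and 0.82 in CK (SE 0.10, edgeR adjusted p = 1.51e-05). In C the call was lost, leaving 0, when WT 2, WT 3, WT 4 or any of the C mice was left out.

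Set directly against each other, CK and K differed at 1 broad promoter, Nr3c2, compared with 0.00916% of all peaks. Its log2 fold change in CK against K was 0.44 (SE 0.07, edgeR adjusted p = 0.00906). Of the 17 single-library omissions, those of WT 2, WT 4 and CK 5 kept this call. Its log2 fold change was 0.41 to 0.46 over the omissions. Without K 3 or K 4 only Xkr6 was called, and 12 omissions left 0.

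CK and C differed more: 46 were gained (3.48%, compared with 0.907% of all peaks) and 4 lost (0.30%, compared with 0.77%). Among short promoters 3.55% were gained and 0.114% lost. Beside Nr3c2, the leading gains were Sox12, a SoxC transcription factor gene, and Fam84b. Sox12 had 55.3, 56.3, 51.5 and 54.9 CPM in C and 74.9, 68.0, 67.3, 70.5 and 74.1 CPM in CK, with 61.7, 70.8, 54.4 and 61.5 CPM in WT. WT lay between C and CK and met both ranges. The log2 fold change in CK against C was 0.38 (SE 0.06, edgeR adjusted p = 0.000595). Fam84b had 26.9 ± 3.4 CPM (SD, n = 4) in C and 39.0 ± 3.3 CPM (SD, n = 5) in CK, which is 0.53 on the log2 scale (SE 0.08, edgeR adjusted p = 0.000623).

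The leading losses against C were 6030468B19Rik, Zmynd8, which encodes a reader of histone marks, and Grm6. 6030468B19Rik had 58.8 ± 2.4 CPM (SD, n = 4) in C and 47.9 ± 2.0 CPM (SD, n = 5) in CK, and the Zmynd8 peak, at an inner start site, 7.28 ± 1.2 and 4.89 ± 0.46 CPM. The Zmynd8 call was lost without C 4, CK 1 or CK 4 (-0.62 to -0.46 over all omissions) and the Grm6 call without any C mouse or CK 1, CK 2, CK 4 or CK 5 (-0.27 to -0.21). Centring within GC content bins gave 14 gained and 10 lost in CK against C, beside 232 and 367 of all peaks. The total of 50 became 25, 21, 22 and 13 without C 1, C 2, C 3 and C 4, and 13, 21 and 29 without CK 1, CK 4 and CK 5. All peaks went from 594 gained and 504 lost to 121 and 129 without C 4, and to 183 and 214 without CK 1.

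K and C differed at 11 gained (0.83%, compared with 0.283% of all peaks) and 1 lost (0.08%, compared with 0.505%), or 7 and 5 with GC content bins. With the bins, 118 of all peaks were gained and 261 lost. Without the bins, 0.776% of short promoters were gained and 0.124% lost. The total of 12 became 7, 4, 6 and 2 without C 1, C 2, C 3 and C 4, and 2 and 5 without K 1 and K 2. All peaks went from 185 gained and 331 lost to 33 and 69 without C 4, and to 35 and 74 without K 1. The change in CK was also compared with the sum of the log2 changes in C and K. No broad promoter departed from the sum, compared with 0.0107% of all peaks. In edgeR 24 of the 1321 had an unadjusted p under 0.05, compared with 2444 of the 65483 peaks. DESeq2 also called 0 broad promoters, and among all peaks 6 above and 5 below the sum.

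The broad promoters were next ordered by mean accessibility over all 17 mice per kb of peak, which ran from 1.1 to 70.5 CPM per kb, and split into quintiles. The lowest quintile, under 9.17 CPM per kb, held 80 of the 127 promoters gained in CK and 5 of the 34 lost. The next quintiles held 28, 16, 3 and 0 gained and 7, 8, 7 and 7 lost. The median log2 fold change in CK was 0.27 in the lowest quintile, where 81.1% of promoters lay above 0, and 0.05, 0.04, 0.01 and -0.01 in the others. In K the medians of the lowest and highest quintile were 0.19 and 0.01, and in C 0.08 and -0.05, against the same WT mice.

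**Figure D2:**
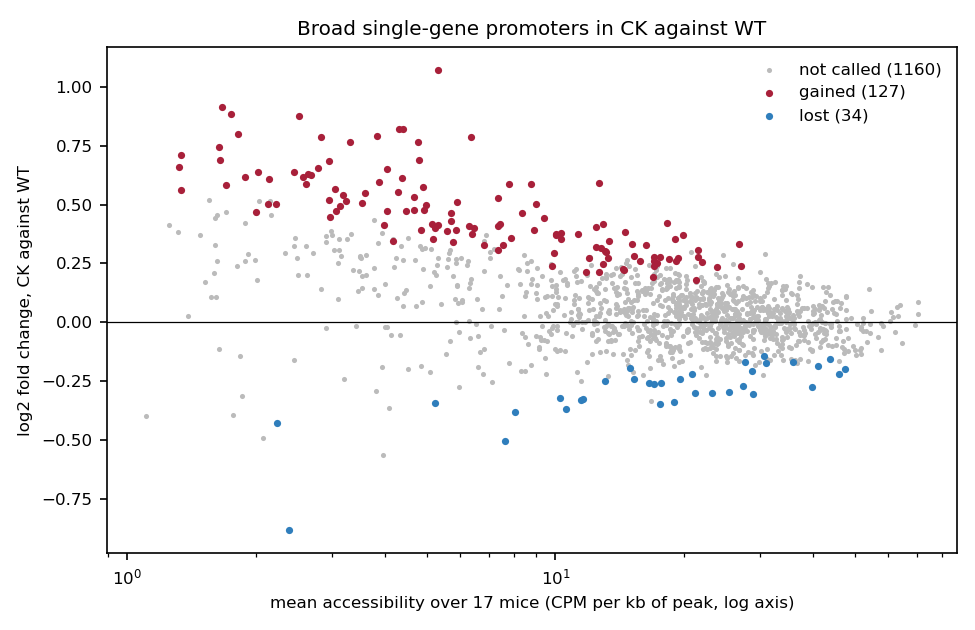
Each point is a broad promoter, with its mean accessibility over the 17 mice in CPM per kb (horizontal, log axis) and its log2 fold change in CK against WT (vertical). The 127 gained promoters lie mostly at low accessibility, while the 34 lost ones reach up to 47.6 CPM per kb and the majority at high accessibility stays near 0.

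**Figure D3:**
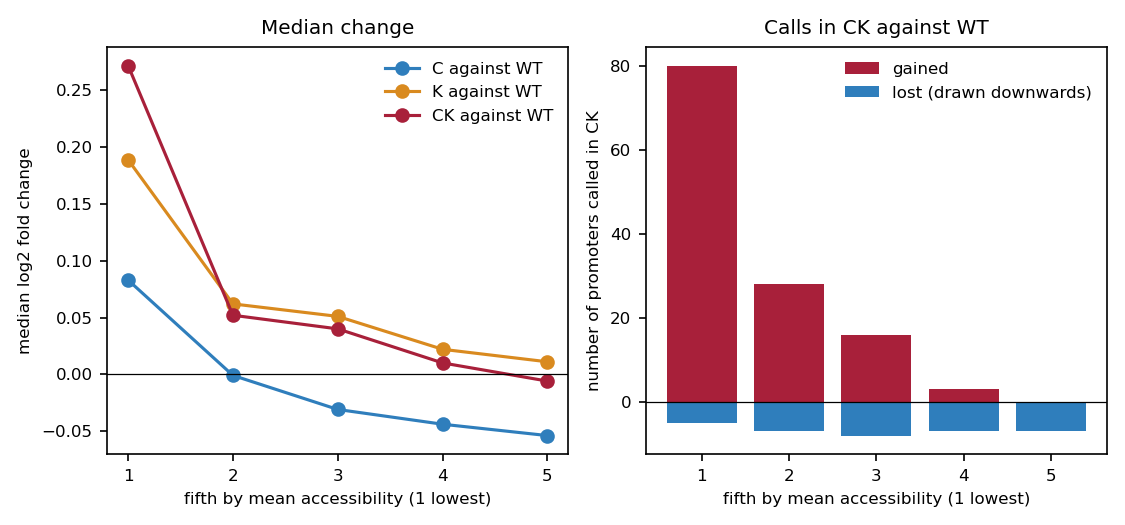
Left, the median log2 fold change of C, K and CK against WT in quintiles of the broad promoters by mean accessibility. Right, the number gained (upwards) and lost (downwards) in CK in each quintile, from 80 gained and 5 lost in the lowest to 0 gained and 7 lost in the highest.

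Summed over the lowest quintile, accessibility was 3601 ± 116 CPM (SD, n = 4) in WT, 3786 ± 37.9 CPM (SD, n = 4) in C, 3984 ± 142 CPM (SD, n = 4) in K and 4171 ± 88.0 CPM (SD, n = 5) in CK. The CK mice, at 4062 to 4291 CPM, did not overlap the WT mice, at 3458 to 3698 CPM. Over the highest quintile the sums overlapped, with 32760 to 34483 CPM in WT and 32148 to 35167 CPM in CK. Short promoters in the same ranges of CPM per kb had medians in CK of 0.36, 0.12, 0.08, 0.05 and 0.02, and 25.4% gained in the lowest range, where 30.2% of broad promoters were gained. In the highest range, 1.85% of short promoters and 0% of broad promoters were gained, and 0.37% and 2.65% were lost.

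The 5 promoters with the lowest WT level per kb were those of Fst, Prdm14, Vwa5b2, Xkr6 and Gata6. Fst, the activin antagonist follistatin, had 4.03 ± 0.46 CPM (SD, n = 4) in WT and 6.59 ± 0.87 CPM (SD, n = 5) in CK, which is 0.71 on the log2 scale (SE 0.12, edgeR adjusted p = 0.000236). Prdm14, a pluripotency and germ cell factor, had 4.02 ± 0.51 and 6.36 ± 0.56 CPM, a log2 fold change of 0.66 (SE 0.12, edgeR adjusted p = 0.000654). Vwa5b2 was also called, at 0.56, a call lost in 13 of the 17 omissions, all but WT 1, C 1, C 3 and CK 5 (0.43 to 0.72), and Gata6, a factor of endoderm and heart, was not, at 0.41 (SE 0.13, edgeR adjusted p = 0.0277).

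At the other end were Ppp2r3d, Xpo1, the nuclear exporter exportin 1, Jund, an AP-1 subunit, Cd74, the MHC class II invariant chain, and Pou2f1, the octamer factor Oct-1. They had 178 to 289 CPM in WT, and none was called in any mutant. Their log2 fold changes in CK lay between -0.09 at Cd74 and 0.09 at Jund. The longest promoters were Irf2bp2, Junb, another AP-1 subunit, Adm, for the peptide adrenomedullin, the deubiquitinase gene Usp7, and Fgr, a Src family kinase gene. None was called in CK either, with Fgr at -0.14 (SE 0.04, edgeR adjusted p = 0.0167) and Irf2bp2 at 245 ± 9.5 CPM (SD, n = 4) in WT and 238 ± 7.0 CPM (SD, n = 5) in CK. By length, the median log2 fold change in CK was 0.06 in the 686 promoters under 3000 bp and -0.01 in the 137 of 4000 bp or more, whose median level was 22.1 CPM per kb against 18.6.

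Base composition moved with the change as well. From the lowest to the highest quintile of GC content, 7, 14, 24, 37 and 45 broad promoters were gained in CK and 13, 8, 8, 4 and 1 lost, with median log2 fold changes of -0.03, 0.02, 0.04, 0.07 and 0.13. Across the 1321 promoters, Pearson's r with the log2 fold change was 0.39 for GC content and -0.49 for the logarithm of the mean level per kb, while GC content and level had an r of 0.05. These points share the same libraries. After centring within GC content bins, the highest GC quintile had 24 gained and 40 lost, and r with the level was -0.55. In the lowest quintile by accessibility 58 were then gained and 5 lost, and in the highest 0 and 43. Whether GC content in itself or the handling of the libraries moved with genotype was not tested.

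**Figure D4:**
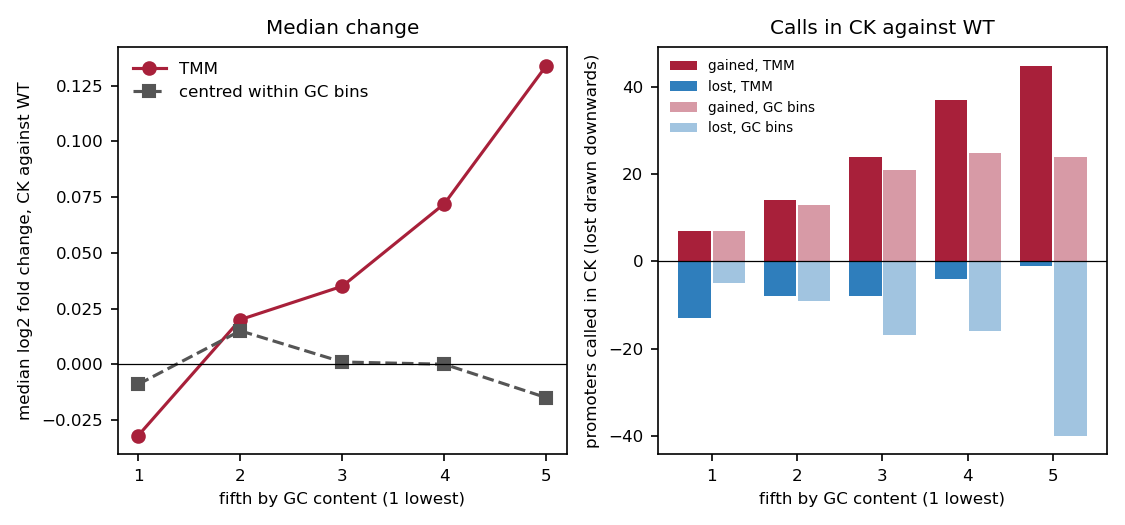
Broad promoters in quintiles by GC content, from the lowest (1) to the highest (5). Left, the median log2 fold change in CK against WT with TMM scaling (circles) and after centring within GC content bins (squares). Right, gained (upwards) and lost (downwards) promoters with both scalings, where the highest quintile goes from 45 gained and 1 lost to 24 gained and 40 lost.

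In GC and CpG content, the called promoters followed the same lines, while the GC box was no more frequent in the gained than in all broad promoters. The median observed over expected CpG ratio of the whole peak was 0.71 in the gained, 0.23 in the lost and 0.61 in all broad promoters, and the median GC content 58.6%, 52.1% and 55.1%. In the 300 bases around the TSS, from 250 before to 50 after, the SP/KLF GC box (GGGCGG, both strands) was present in 60.6% of the gained, 29.4% of the lost and 65.4% of all broad promoters, and in 63.2% of all single-gene promoters. The ETS motif CCGGAAG was found in 4.72%, 5.88% and 9.01%, against 14.8% of all single-gene promoters. The octamer ATGCAAAT was rare, at 0.79% of the gained, 0% of the lost, 2.57% of broad and 1.76% of all single-gene promoters, and the palindromic CRE TGACGTCA, the site of CREB, stood at 3.15%, 0%, 2.73% and 3.41%. A match of letters does not show that a factor is bound.

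The calls were then counted by gene list. Of 150 listed developmental transcription factors, 25 had broad promoters, 26 in all. In CK, 12 were gained, none was lost and 14 were not called, compared with 3.54% of all peaks and 9.61% of broad promoters gained. The median log2 fold change was 0.37, beside 0.0029 for all peaks. The log2 change was above 0 at 25 of the 26, all but Meis1, in edgeR. With GC content bins, 10 were gained and the median was 0.30. They were weakly accessible, with a median of 3.20 CPM per kb in WT. In the lowest quintile of all broad promoters by accessibility, 80 of 265 were gained in CK and the median was 0.27. In K 1 was gained, Zic5, and the median was 0.21, and in C 0 were gained or lost and the median was 0.18.

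Sp8, a zinc finger factor of limb and brain, had 9.47, 7.47, 5.76 and 6.20 CPM in WT and 13.9, 14.3, 12.9, 10.9 and 10.2 CPM in CK, a log2 fold change of 0.79 (SE 0.13, edgeR adjusted p = 0.000182). Pax6, the eye and brain factor, was gained at both of its broad promoters. The more open one had 37.2, 39.3, 35.5 and 35.9 CPM in WT and 46.7, 47.3, 43.3, 45.4 and 49.5 CPM in CK, a log2 fold change of 0.33 (SE 0.05, edgeR adjusted p = 0.00024). No CK mouse met the WT range at either factor. Named after their values were seen, the other gained promoters of the list were Pou3f2, Meis2, Hoxa13, the second of Pax6, Neurog2, Isl2, Lhx1, Zic2 and Foxl2, with log2 fold changes from 0.33 at Isl2 to 0.64 at Pax6.

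**Figure D5:**
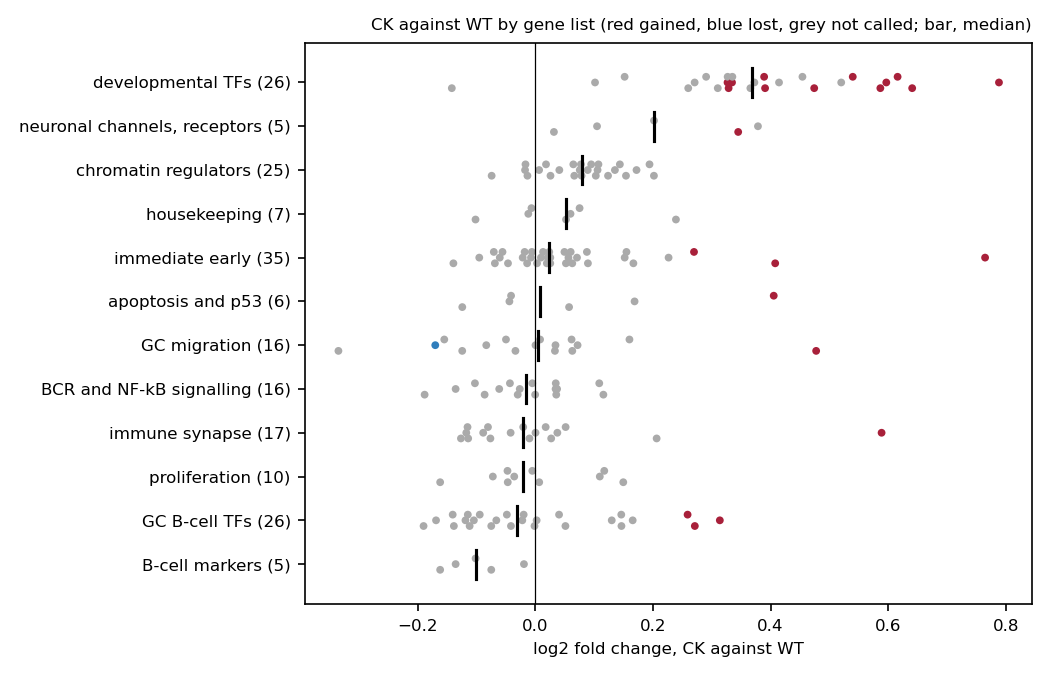
Log2 fold change in CK against WT (horizontal axis) of each broad promoter of 12 gene lists, with the number of promoters in parentheses. Points are promoters, coloured where called, and black bars are medians, which run from -0.10 for B-cell markers to 0.37 for developmental transcription factors (TFs).

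Lists of genes that GC B cells use followed. Of the 26 broad promoters of 21 GC B-cell transcription factors, 3 were gained in CK and 23 were not called. Among all broad promoters 9.61% were gained, and among all peaks 3.54%. The median log2 fold change of the list was -0.03. The gained ones were both broad promoters of Foxp1, a forkhead repressor that is normally low in GC B cells, and that of Zeb2, a zinc finger repressor. The upstream Foxp1 promoter had 38.9, 41.6, 37.4 and 37.9 CPM in WT, 49.3, 50.6, 44.5 and 46.8 CPM in K and 54.0, 46.4, 44.4, 49.3 and 48.0 CPM in CK. The C mice, at 40.1 ± 0.68 CPM (SD, n = 4), lay within the WT range. The log2 fold change was 0.29 in K (SE 0.06, edgeR adjusted p = 0.00383) and 0.31 in CK (SE 0.05, edgeR adjusted p = 0.000397). At the Foxp1 promoter further into the gene the values were 0.24 in K and 0.26 in CK, both called. Zeb2 changed by 0.27 in CK (SE 0.06, edgeR adjusted p = 0.00279), a call lost without WT 3 or WT 4 (0.25 at the lowest). With GC content bins the upstream Foxp1 promoter was no longer called, at 0.13 in CK and 0.14 in K, and Pou2f1 was lost in CK, at -0.23.

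Of 17 broad promoters of immune synapse genes, 1 was gained in CK, that of Lgals9, for the lectin galectin-9. The other 16 were not called, and the median was -0.02. Among all broad promoters 9.61% were gained and 2.57% lost, and among all peaks 3.54% and 3.3%. Lgals9 had 8.10 ± 0.71 CPM (SD, n = 4) in WT and 12.2 ± 1.8 CPM (SD, n = 5) in CK, which is 0.59 on the log2 scale (SE 0.12, edgeR adjusted p = 0.00224). H2-DMb2, an MHC class II peptide-loading gene, was at -0.12 (SE 0.04, edgeR adjusted p = 0.0327) and Il12a, a subunit of IL-12 and IL-35, at 0.21 (SE 0.06, edgeR adjusted p = 0.015), neither called. All 16 broad promoters of B-cell receptor and NF-kB signalling genes stayed uncalled in CK with edgeR at a median of -0.02, although GC content bins gave 2 losses there, Akt1 and Vav2. Pik3cd, the catalytic subunit of PI3K delta, was closest at -0.19 (SE 0.05, edgeR adjusted p = 0.0107), followed by Pik3r1 at 0.12 and Cd22, an inhibitory coreceptor, at -0.14.

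In the GC migration list, 1 of 16 was gained and 1 lost in CK. Of all broad promoters 9.61% were gained and 2.57% lost, and of all peaks 3.54% and 3.3%. With GC content bins the list had 1 gained and 3 lost, where Vasp and Coro1a were also lost. P2ry14, a receptor for UDP-sugars, rose to 15.3 ± 2.9 CPM (SD, n = 5) in CK, with 11 ± 1.1 CPM (SD, n = 4) in WT, and Arhgef1, a guanine nucleotide exchange factor that relays confinement signals to GC B cells, fell from 124 ± 5.3 to 110 ± 4.4 CPM, a log2 fold change of -0.17 (SE 0.04, edgeR adjusted p = 0.00494). Both calls depended on single mice: omitting any WT mouse, C 2, C 4, K 2, CK 1, CK 2 or CK 3 ended that of P2ry14 (0.38 to 0.55), and omitting WT 2, WT 4, CK 2, CK 3 or CK 4 that of Arhgef1 (-0.19 to -0.15). Rgs13, a GC B-cell regulator of chemokine signalling, was at -0.33 (SE 0.09, edgeR adjusted p = 0.0125) and was not called. In the apoptosis and p53 list, 1 of 6 was gained, beside 9.61% of all broad promoters and 3.54% of all peaks. It was the promoter of the survival gene Bcl2. It had 32.8, 33.6, 28.3 and 27.1 CPM in WT and 45.3, 34.6, 39.0, 41.9 and 40.6 CPM in CK, a log2 fold change of 0.41 (SE 0.08, edgeR adjusted p = 0.000738). The lowest CK mouse was just above the highest WT mouse. Bid and Bbc3, both proapoptotic, were at -0.12 and 0.17 and were not called. With GC content bins 2 of the 6 were lost, Bid at -0.16 and Bcl2l11, another proapoptotic gene, at -0.23.

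Immediate early genes, which are induced within minutes of a stimulus, formed the largest group with 35 broad promoters. In CK, 3 were gained and 32 not called, compared with 9.61% of all broad promoters and 3.54% of all peaks gained. The median was 0.02. The gained ones were Spry2, described above, Spred1, another inhibitor of the Ras pathway, at 0.27 (SE 0.06, edgeR adjusted p = 0.00226), and the nuclear receptor gene Nr4a2 at 0.41 (SE 0.09, edgeR adjusted p = 0.00238). The calls of Spred1 and Nr4a2 were lost without WT 3 or WT 4, at 0.22 and 0.34 at the lowest, and that of Nr4a2 also without CK 1. With GC content bins, 3 were gained and 8 lost, with a median of -0.07.

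Neither the 25 broad promoters of chromatin regulators nor the 10 of proliferation genes, the 7 of housekeeping genes, the 5 of B-cell markers or the 3 of T-cell markers held a call in CK with edgeR, and in GC content bins 1 chromatin regulator, Smarca2, was lost. Their median log2 fold changes were 0.08, -0.02, 0.05, -0.10 and 0.07. Across all broad promoters 12.2% were called in CK, and across all peaks 6.84%. With GC content bins the median of the chromatin regulators turned to -0.02. With TMM 21 of the 25 lay above 0, led by Arid1a, a BAF complex subunit, at 0.19 (SE 0.06, edgeR adjusted p = 0.025), Nsd2 at 0.20 and Kdm2a at 0.17. Of the 5 promoters of neuronal channels and receptors, that of the calcium channel gene Cacna1d was gained at 0.34 (SE 0.09, edgeR adjusted p = 0.00999), a call that 15 of the 17 omissions ended, all but WT 1 and C 4 (0.31 to 0.39), as did GC content bins, while Adra2a at 0.38 and Robo3 at 0.20 were not called. Proliferation genes were led by E2f3 at 0.12 and Cdk6 at 0.11, housekeeping genes by Eif4g1 at 0.24, Sf3b1 at -0.10 and Srsf1 at 0.06, and T-cell genes by the broad promoters of Gata3 at 0.35 and 0.07 and Lck at 0.06. No myeloid or erythroid marker had a broad promoter.

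Pax5, the B-cell commitment factor, had at its inner promoter 119, 120, 120 and 131 CPM in WT and 118, 117, 110, 116 and 120 CPM in CK, a log2 fold change of -0.07 (SE 0.04, edgeR adjusted p = 0.206). The ranges of WT and CK overlapped. Of the floxed genes Kmt2d had a broad promoter, with 41.9 ± 2.3 CPM (SD, n = 4) in WT, 42.4 ± 2.8 CPM (SD, n = 4) in K and 44.2 ± 1.7 CPM (SD, n = 5) in CK. The level at its start does not check the deletion.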

How the data were processed

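ATAC-seq was run on sorted GC B cells of 17 mice. The deposited table holds raw counts of fragments in consensus peaks, which the authors made with featureCounts 2.0.1 (minimum overlap 0.2) after aligning to mm10 in the nf-core pipeline. CPM are these counts per library total after scaling. Start sites are the 5′ ends of protein-coding transcripts in GENCODE M21, and sequences were read from GRCm38.

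Counts were scaled with TMM and tested with edgeR 4.0.16 in R 4.3.3 (quasi-likelihood, all 4 genotypes in 1 fit, Benjamini-Hochberg adjustment over all peaks, adjusted p under 0.01). No peak had under 10 counts in all, so the filter removed 0. DESeq2 1.42.0 served as an alternative. Only the edgeR comparison of CK with WT was tried on simulated counts. Each library is 1 mouse. The fits of the contrasts share the WT mice. Centrocyte and centroblast samples were not analysed here.

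The members, gene lists, motifs and alternatives were chosen with earlier results of these data known. Named promoters are the called ones with the lowest p whose mice did not overlap those of WT (8 in each direction in CK, 4 in K, 3 in C), the 3 leading ones in each direction in CK against C, those called in CK against K, the 5 longest, the 5 highest and 5 lowest in WT CPM per kb, the 3 members of each list with the lowest p in CK, and floxed and B-cell genes, 1 of which is not reported here.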

Additional observations from a re-analysis of the deposited data

Results flagged for a closer look

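Among the 76 named promoters, the 4 genotypes gave 304 groups of 4 or 5 mice, and 13 held a mouse whose gap to the nearest other was large for the range of its group by Dixon's ratio. Chance alone flags about 1 in 20 groups, and no explanation was tested. In WT these were mouse 4 at Akna (100 CPM, nearest 87.2) and mouse 4 at Pax5 (131 CPM, nearest 120). In C they were mouse 1 at Apoe (79.2 CPM, nearest 82.9), mouse 2 at Utrn (58.2 CPM, nearest 62.0), and mouse 4 at Zmynd8 (9.03 CPM, nearest 6.89) and at Pou2f1 (166 CPM, nearest 162). In K they were mouse 2 at Il2rb (16.4 CPM, nearest 21.5) and at Scarf2 (6.17 CPM, nearest 4.83), mouse 1 at Robo3 (17 CPM, nearest 14.2) and mouse 3 at Lck (24.5 CPM, nearest 28.6). In CK they were mouse 1 at Fst (8.12 CPM, nearest 6.35) and mouse 2 at Prdm14 (7.32 CPM, nearest 6.30) and at Pik3r1 (82.7 CPM, nearest 79.8).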

How the results depend on the processing

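The counts in CK against WT kept within 1.5 times for gained promoters under DESeq2, its size factors, total counts, GC content bins, filterByExpr, the Y signal as covariate and start sites from the gene record (90 to 158, 127 as reported). Start sites aside, these settings gave 1678 to 2823 gained among all peaks (2320 as reported). Above 1.5-fold, 33 were gained and 1 lost in CK, 5 and 1 in K, and 0, 5 and 2 called in CK against K, CK against C and K against C. GC content bins gave 87 lost in CK, 9 gained and 17 lost in K, 0 in CK against K and 24 in CK against C. Among all peaks the bins gave 2201 lost in CK, and 236 gained and 471 lost in K. They gave 2 gained and 2 lost in CK against K, and 232 and 367 in CK against C. DESeq2 gave 52 lost in CK, 49 and 9 in K, 2 and 1 in C, 102 in CK against C and 37 in K against C. Its all-peak counts were 2671 lost in CK, 786 gained and 953 lost in K, and 76 and 104 in C. They were 1157 and 947 in CK against C, and 522 and 642 in K against C. Total counts gave 2 gained in C, and 0 in CK against K, as did size factors, filterByExpr and the Y covariate, which gave 89 in CK against C. Among all peaks, total counts gave 44 gained in C, and the Y covariate 1090 gained and 826 lost in CK against C. Start sites from the gene record left 22 lost in CK and 2 in K.

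Leaving out each mouse in turn gave 79 to 134 promoters gained in CK and 13 to 40 lost, beside 1150 to 2334 and 964 to 2320 of all peaks. In K it gave 0 to 28 gained and 0 to 5 lost, in C 0 to 1 of each, against K in CK 0 to 1, against C in CK 13 to 70, and in K against C 2 to 15. All peaks had 85 to 466 gained and 131 to 605 lost in K, and 17 to 52 and 28 to 86 in C.

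A replicate block over replicates 1 to 4 gave 182 gained and 76 lost in CK, 71 and 14 in K, 3 and 1 in C, 1 in CK against K, 125 in CK against C and 67 in K against C. With the block, all peaks had 3170 gained and 3444 lost in CK, 972 and 1173 in K, and 79 and 133 in C. They had 8 and 18 in CK against K, 1337 and 1232 in CK against C, and 680 and 730 in K against C. The numbers were not taken to pair the mice, since 13 and not all of 24 same-numbered pairs of libraries had deviations correlated above 0.1 (-0.08 to 0.25). Of different-numbered pairs 15 of 84 were above 0.1, and all 6 pairs of replicates 1 were. Of the 16 libraries that share a number, 10 correlated best with their own, a hint from the data and not from the labels. All replicate 1 libraries had Y signal, so their number and that signal cannot be told apart, and its part was not tested.

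Of 2400 recomputed log2 fold changes of named promoters, 2155 kept direction and call, 190 lost and 42 gained a call, and 13 changed sign, none of them called. With GC content bins these were Junb at -0.043, Jund at -0.094, Xpo1 at -0.061 and Kmt2d at -0.017. Junb was at -0.007 with the block. Without single mice, Junb ran from -0.007 to 0.04, Usp7 ran from -0.065 to 0.041 and Ppp2r3d from -0.045 to 0.021, and Ppp2r3d was at 0.017 with the block.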
